A study of Nannochloropsis oceanica with 18 samples.

Results

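The normal light libraries of the KO-labelled strain (NL_KO) and of the wild type (NL_WT) of Nannochloropsis oceanica were compared over all genes of the count table, those of the plastid (prefix cp-) and mitochondrion (prefix mt-) included. They are 6 of the 18 libraries of the series, 3 in each group, and were chosen by their labels. N. oceanica is a unicellular marine alga with a high oil content. Both strains have the background IMET1, and the genotype label of the first names a knockout of the nuclear gene NO07G02030, while the wild type carries no allele in its label. Cultures had been kept for 8 days in shaken flasks at 25 °C with light set to about 50 µmol photons per square metre and second. The same 2 strains at about 300 µmol (HL_KO and HL_WT, 3 libraries each) were used for comparison. A strain labelled as overexpression of NO07G02030 was also grown at both light levels (NL_OE and HL_OE, 3 libraries each). Its libraries were fitted together with the others in the main tests, and its normal light values are given below. How the KO-labelled strain was made, and from how many clones it comes, the sources used here do not state. The labels speak of biological replicates but do not say which seed cultures they came from, so p-values measure the spread between flasks only. In the main edgeR tests that spread was estimated over all 18 libraries, those of the other strain and light level included.

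Nannochloropsis took up its plastid by secondary endosymbiosis of a red-lineage alga. Most proteins of the plastid and mitochondrion are encoded in the nucleus. The plastid genome keeps the reaction centre proteins of both photosystems, subunits of the ATP synthase, the large subunit of the carbon-fixing enzyme Rubisco, an RNA polymerase and ribosomal proteins. The mitochondrial genome keeps subunits of the respiratory chain and of its own ribosomes. The nuclear genes carry IDs that the sources used here do not pair with names, so they are given by ID and by value, with no function. An ID such as NO07G02030 names an ID series (NO07, of 30 series) and a running number, and IDs that follow each other in it are called neighbours below; their positions on the genome were not used here.

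Total counts were 14684298 to 16477033 in the NL_KO libraries and 16069583 to 16306857 in the NL_WT libraries. Of the 10493 genes, 9912 passed the filter on low counts and were tested: 9858 of 10333 nuclear, 36 of 125 plastid and 18 of 35 mitochondrial genes. CPM values are counts scaled to library size, the total times its TMM factor. TPM values are also scaled to gene length and are used where levels of different genes are set side by side. A gene is called where its adjusted p lies under 0.05 (edgeR's quasi-likelihood test over all 18 libraries, Benjamini-Hochberg over all tested genes). Fold changes are log2 of NL_KO over NL_WT unless another pair of groups is named.

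One NL_KO library stood apart from its group. Over the tested genes, log2 CPM of NL_KO replicate 1 correlated at 0.936 and 0.961 with replicates 2 and 3 of its own group, but at 0.972, 0.985 and 0.990 with NL_WT replicates 1, 2 and 3. NL_KO replicates 2 and 3 correlated at 0.977 with each other and at 0.924 to 0.961 with the NL_WT libraries. NL_WT libraries correlated at 0.966 to 0.985 among themselves. NL_KO replicate 1 was thus as close to NL_WT replicate 3 as any pair of the 6 libraries. These correlations are across genes, which are not independent replicates. Among 8541 genes with a mean of at least 10 CPM, 5 were at least 2-fold above and 26 at least 2-fold below the NL_WT mean in NL_KO replicate 1. In NL_KO replicate 2 these counts were 336 and 511, and in replicate 3 they were 98 and 234. Set against the mean of the other 2 wild type libraries, NL_WT replicate 1 had 241 and 5, replicate 2 had 0 and 10, and replicate 3 had 4 and 325. The biological coefficient of variation, the spread between libraries beyond counting error, was 27.5% in NL_KO and 18.5% in NL_WT. Results are therefore given with and without NL_KO replicate 1.

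**Figure D1:**
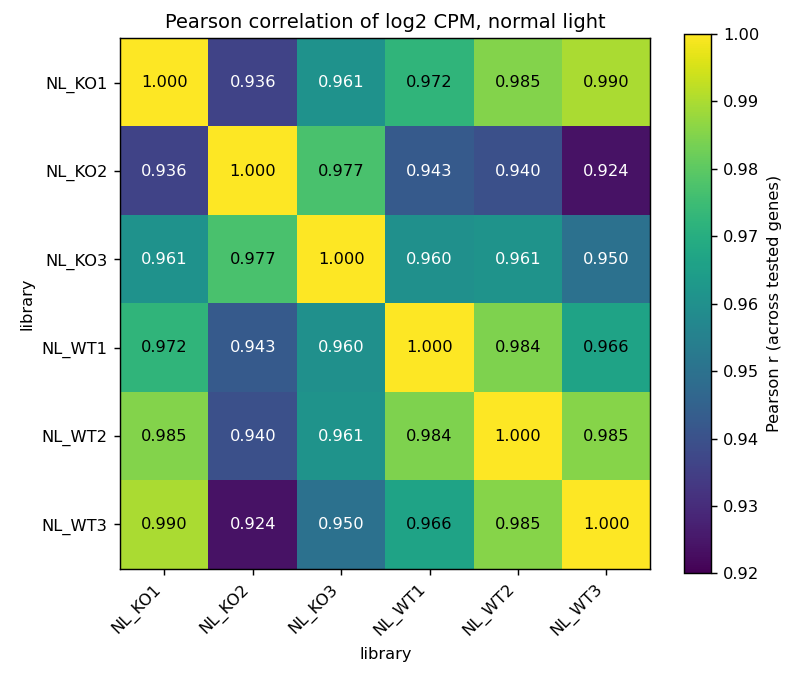
Pearson correlation of log2 CPM over 9912 tested genes for each pair of the 6 normal light libraries, NL_KO first. NL_KO replicate 1 has its highest value, 0.990, with NL_WT replicate 3 and its lowest, 0.936, with NL_KO replicate 2.

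The gene named in the genotype label was examined first. NO07G02030 stood at 32.9, 14.5 and 17.8 TPM in NL_KO, against 26.1, 28.96 and 32.3 TPM in NL_WT. The value of NL_KO replicate 1 lay above all 3 NL_WT libraries, and those of replicates 2 and 3 lay below all 3. The groups therefore overlapped (log2 fold change -0.37, SE 0.22, edgeR unadjusted p = 0.105, adjusted p = 0.439; two-sided exact permutation test of TPM, p = 0.4, n = 3 each, where 0.1 is the smallest possible). Without NL_KO replicate 1 the transcript was lower in NL_KO (log2 fold change -0.72, SE 0.19, edgeR adjusted p = 0.0394). At high light it had the other sign, with 26.8, 23.8 and 19.4 TPM in HL_KO and 11.7, 21.04 and 22.2 TPM in HL_WT (log2 fold change 0.44, SE 0.22, edgeR adjusted p = 0.272). The transcript was thus not below wild type in NL_KO replicate 1 or in the high light means. How the strain was made is not stated, so transcript counts cannot test the label. The strain is called KO-labelled throughout.

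The 20 tested neighbours of NO07G02030, 10 on each side, held 0 called genes and 2 with an unadjusted p under 0.05, against 12.1% of all tested genes. NO07G01990, 4 IDs before it, had 56.4, 116 and 95.5 CPM in NL_KO and 62.7, 58.7 and 53.6 CPM in NL_WT (log2 fold change 0.62, SE 0.25, edgeR adjusted p = 0.408). NO07G02080, 5 IDs after it, had 72.6, 27.6 and 31.7 CPM in NL_KO and 53.4, 74.2 and 102 CPM in NL_WT (log2 fold change -0.80, SE 0.32, edgeR adjusted p = 0.408). In both neighbours NL_KO replicate 1 lay within the range of NL_WT and replicates 2 and 3 outside it. The nearest neighbours were not called: NO07G02020 averaged 27.01 CPM in NL_KO and 23.7 CPM in NL_WT, and NO07G02040 averaged 95.6 CPM in NL_KO and 78.2 CPM in NL_WT (edgeR adjusted p = 0.744 and 0.561).

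Between the strains 6 genes were called higher and 7 lower in NL_KO, which is 0.0605% and 0.0706% of the 9912 tested genes, and 0.131% together. All 13 are nuclear, lie in 11 ID series and changed by at least 2-fold. In each of the 13, all 3 NL_KO libraries lay on one side of all 3 NL_WT libraries, NL_KO replicate 1 included. The same separation held for 962 tested genes with NL_KO above NL_WT (9.71%) and for 626 with NL_KO below (6.32%), so separation alone does not mark the 13. An unadjusted p under 0.05 was reached by 1198 genes (12.1%), 680 higher and 518 lower. The number of calls depended on the model: DESeq2 called 40 genes, edgeR on the 6 normal light libraries alone 5, edgeR on the 12 KO-labelled and wild type libraries 3, and limma with voom and sample quality weights 3993. NO13G01090, NO08G03060 and NO13G03170 were called in all 17 alternatives. NO07G04430 and NO06G04570 were lost in edgeR on the 12 libraries alone, and the other 8 there and on the 6 libraries alone.

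**Figure D2:**
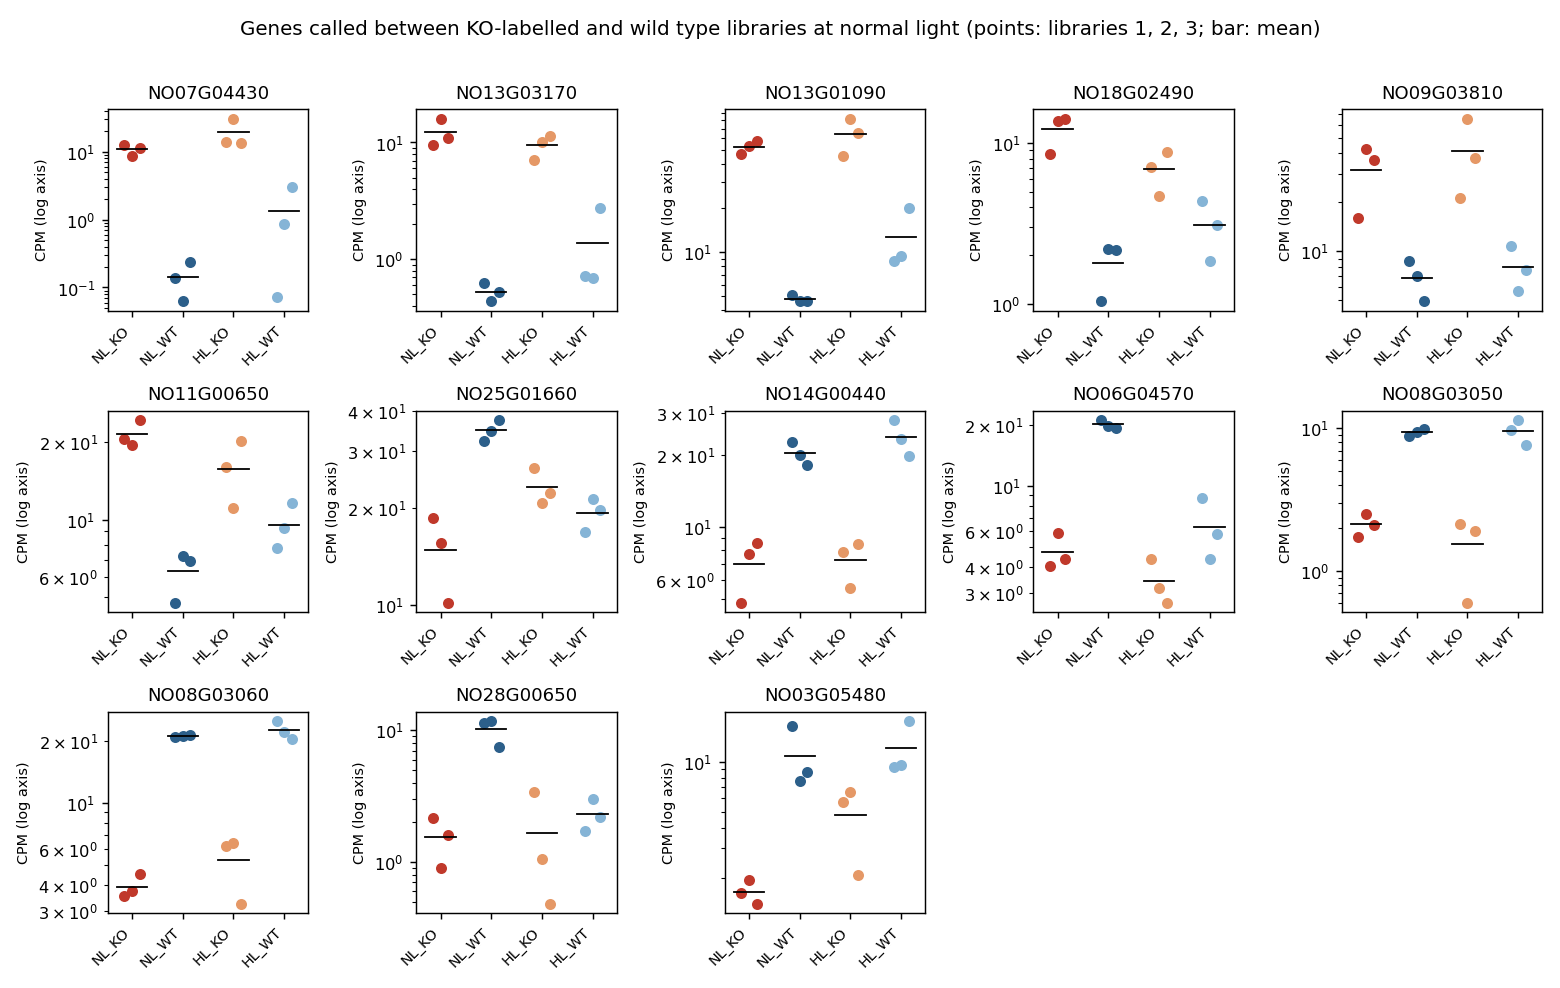
CPM (log axis) of the 13 called genes in each library of NL_KO, NL_WT, HL_KO and HL_WT, ordered by the normal light fold change, from the largest rise (NO07G04430) to the largest fall (NO03G05480). Points are libraries, and bars are means. At normal light the 3 NL_KO points lie apart from the 3 NL_WT points in all 13 panels.

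Of the higher genes, NO13G01090 had 47.1, 53.6 and 57.4 CPM in NL_KO and 5.11, 4.61 and 4.68 CPM in NL_WT (log2 fold change 3.46, SE 0.29, edgeR adjusted p = 1.62e-05). Both groups were tight, and all NL_KO libraries stood far above NL_WT. NO07G04430 had 12.7, 8.72 and 11.2 CPM in NL_KO and 0.138, 0.0623 and 0.234 CPM in NL_WT (log2 fold change 6.15, SE 0.81, edgeR adjusted p = 0.00167). Its NL_WT values rest on 2, 1 and 4 counts, so the gene was near the detection limit there and the size of the fold change is uncertain. NO13G03170 had 9.52, 16.03 and 11.02 CPM in NL_KO and 0.621, 0.436 and 0.526 CPM in NL_WT (log2 fold change 4.51, SE 0.51, edgeR adjusted p = 0.000464), again with no overlap. Per length, NO07G04430 and NO13G01090 reached similar levels in NL_KO, with means of 80.96 ± 26.4 and 73.8 ± 4.77 TPM, and of 1.16 ± 0.749 and 7.07 ± 0.225 TPM in NL_WT (SD, n = 3 each).

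The other 3 higher genes changed less. NO18G02490 had 8.57, 13.8 and 14.2 CPM in NL_KO and 1.03, 2.18 and 2.16 CPM in NL_WT (log2 fold change 2.75, SE 0.35, edgeR adjusted p = 0.00158). NO11G00650 had 20.6, 19.5 and 24.4 CPM in NL_KO and 4.76, 7.22 and 6.90 CPM in NL_WT (log2 fold change 1.77, SE 0.23, edgeR adjusted p = 0.00167). NL_KO replicate 1 was the lowest NL_KO library for NO18G02490 and lay between the others for NO11G00650. NO09G03810 had 16.1, 42.8 and 36.4 CPM in NL_KO and 8.69, 7.04 and 4.91 CPM in NL_WT (log2 fold change 2.21, SE 0.40, edgeR adjusted p = 0.0351). Its NL_KO replicate 1 was also lower than replicates 2 and 3, though above NL_WT. The call of NO09G03810 was lost without NL_KO replicate 2 or 3 and without any 1 of the NL_WT replicates, and with NL_KO and NL_WT fitted alone (adjusted p over all alternatives 3.75e-06 to 0.442).

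Among the 7 lower genes, 2 carry consecutive IDs. NO08G03060 had 3.51, 3.73 and 4.52 CPM in NL_KO and 20.8, 21.2 and 21.4 CPM in NL_WT (log2 fold change -2.43, SE 0.22, edgeR adjusted p = 2.82e-05). Its neighbour NO08G03050 had 1.73, 2.54 and 2.12 CPM in NL_KO and 8.83, 9.40 and 9.94 CPM in NL_WT (log2 fold change -2.15, SE 0.31, edgeR adjusted p = 0.00364). Both were lower in every NL_KO library than in any NL_WT library. The IDs around the pair did not pass: NO08G03040 had a log2 fold change of -0.58 (edgeR adjusted p = 0.408) and NO08G03070 one of -0.06 (edgeR adjusted p = 0.934). NO08G03080, the next ID, did not pass either but was lower in NL_KO. It had 51, 11 and 14 counts in NL_KO and 64, 93 and 90 in NL_WT (log2 fold change -1.64, SE 0.52, edgeR adjusted p = 0.408). The sources used here do not say whether counting used the strand, so reads of overlapping neighbours could not be told apart. NO06G04570 had 4.05, 5.89 and 4.38 CPM in NL_KO and 21.1, 19.6 and 19.3 CPM in NL_WT (log2 fold change -2.07, SE 0.28, edgeR adjusted p = 0.00167). All 18 deposited counts of NO06G04570 are fractional (over 1e-06 from a whole number), as estimated counts are where reads are divided among similar transcripts, so its value is uncertain.

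NO14G00440 had 4.82, 7.68 and 8.54 CPM in NL_KO and 22.8, 20.1 and 18.2 CPM in NL_WT (log2 fold change -1.54, SE 0.25, edgeR adjusted p = 0.0147). NO25G01660 had 18.6, 15.6 and 10.1 CPM in NL_KO and 32.4, 34.7 and 37.6 CPM in NL_WT (log2 fold change -1.24, SE 0.19, edgeR adjusted p = 0.00774), the smallest change among the 13. The last 2 genes were called by a narrow margin. NO03G05480 had 1.61, 1.94 and 1.39 CPM in NL_KO and 16.4, 7.66 and 8.59 CPM in NL_WT (log2 fold change -2.72, SE 0.50, edgeR adjusted p = 0.0437). NO28G00650 had 2.14, 0.895 and 1.61 CPM in NL_KO and 11.4, 11.8 and 7.48 CPM in NL_WT (log2 fold change -2.70, SE 0.51, edgeR adjusted p = 0.0495). In both the NL_KO libraries held little signal and the NL_WT libraries differed among themselves. Their calls were lost without NL_KO replicate 2 or 3 and without any 1 of the NL_WT replicates, and that of NO14G00440 without NL_WT replicate 1. NO03G05480, NO28G00650 and NO25G01660 were also lost with limma on log2(TPM + 0.1), and NO28G00650 without a count filter.

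A pair of genes beside called ones had few counts and did not pass the threshold. Both were chosen after their values were seen. NO07G04420, the ID before NO07G04430, had 4, 51 and 19 counts in NL_KO and 1, 0 and 0 counts in NL_WT. Scaled to library size, the summed NL_KO counts were 80.3 times those of NL_WT (95% exact counting interval 13.97 to 3214; adjusted p = 0.194, edgeR). The interval covers counting error only, and most of the NL_KO counts came from replicate 2. NO13G03160, the ID before NO13G03170, had 29, 66 and 56 counts in NL_KO and 6, 12 and 2 in NL_WT (log2 fold change 3.05, SE 0.76, edgeR adjusted p = 0.312). All NL_KO values of NO13G03160 lay above those of NL_WT.

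The calls were set beside the same strains at high light, where HL_KO and HL_WT are other libraries but share the estimate of the spread. Of the 6 higher genes 4 were called higher there, and of the 7 lower genes 3 were called lower. Of all tested genes 3.63% were called at high light, 3.25% higher and 0.383% lower. NO13G01090 had 45.6, 82.1 and 65.6 CPM in HL_KO and 8.77, 9.42 and 19.99 CPM in HL_WT (log2 fold change 2.34, SE 0.27, edgeR adjusted p = 0.000809). NO08G03060 had 6.16, 6.404 and 3.23 CPM in HL_KO and 24.9, 21.95 and 20.5 CPM in HL_WT (log2 fold change -2.09, SE 0.21, edgeR adjusted p = 0.000348), and NO08G03050 had 2.13, 0.603 and 1.92 CPM in HL_KO and 9.70, 11.5 and 7.67 CPM in HL_WT (log2 fold change -2.61, SE 0.32, edgeR adjusted p = 0.000946). In all 3 genes the HL_KO libraries stayed apart from HL_WT. NO28G00650 differed in this, with 3.41, 1.05 and 0.481 CPM in HL_KO and 1.72, 2.99 and 2.21 CPM in HL_WT (log2 fold change -0.47, SE 0.50, edgeR adjusted p = 0.623), and its 2 groups overlapped.

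The difference between the strains was itself compared between the light levels, as the high light minus the normal light log2 fold change. This difference of differences was called for 60 of 9912 genes (0.605%), with 1774 at an unadjusted p under 0.05. In all 60 the log2 fold changes at the 2 light levels had opposite signs, and in 56 the high light value was the positive one. Of the 13 genes only NO25G01660 was among them. It had 26.6, 20.6 and 22.3 CPM in HL_KO and 16.8, 21.3 and 19.8 CPM in HL_WT (log2 fold change 0.26, SE 0.19, edgeR adjusted p = 0.444; difference of differences 1.501, adjusted p = 0.0285, edgeR). At high light the HL_KO and HL_WT values of NO25G01660 overlapped, below the NL_WT values.

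The overexpression-labelled strain at normal light (NL_OE, 3 libraries) is set against the same NL_WT libraries, so only its values are given. Its NO07G02030 transcript stood at 26.2, 27.2 and 29.5 TPM, within the range of NL_WT. In CPM it had 36.6, 38.6 and 41.1 in NL_OE, below every NL_WT library (43.3, 43.4 and 46.7). The transcript was thus not above wild type in NL_OE by either measure. Of the 6 higher genes, NO13G01090 had 43.2, 47.6 and 44.02 CPM in NL_OE and NO11G00650 had 21.3, 18.8 and 22.7 CPM, near their NL_KO values. NO18G02490, at 15.9, 16.9 and 15.8 CPM in NL_OE, lay above every NL_KO library. NO09G03810 (12.5, 14.4 and 14.6 CPM), NO07G04430 (1.25, 0.973 and 1.32 CPM) and NO13G03170 (1.02, 1.03 and 0.422 CPM) lay below every NL_KO library in NL_OE. Set against NL_WT, NO13G01090, NO11G00650, NO18G02490, NO09G03810 and NO07G04430 lay above every wild type library in NL_OE. NO13G03170 overlapped NL_WT. Of the 7 lower genes, NO14G00440 (at most 3.004 CPM), NO03G05480 (0.0567, 0.378 and 0.581 CPM) and NO28G00650 (2.10, 2.05 and 2.48 CPM) lay below every NL_WT library in NL_OE. NO08G03060, at 18.4, 20.8 and 19.7 CPM, NO06G04570, at 27.9, 15.9 and 22.1 CPM, and NO25G01660, at 39.8, 36.7 and 37.95 CPM in NL_OE, lay above every NL_KO library. NO08G03050 had 17.1 to 20.7 CPM in NL_OE, above both of the other groups. The share of all tested genes whose NL_OE and NL_WT libraries are separated was not counted. Separation from NL_WT alone therefore does not mark these genes.

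Just outside the threshold stood further genes whose NL_KO and NL_WT libraries were separated. Among the 5 genes with the lowest p that were higher in NL_KO, NO05G00180 had 121, 135 and 135 CPM in NL_KO and 95.7, 92.5 and 84.3 CPM in NL_WT (log2 fold change 0.52, SE 0.11, edgeR adjusted p = 0.109). Its groups did not overlap, and libraries within each lay close together. NO07G00340 (19.3, 30.5 and 21.7 CPM in NL_KO and 12.8, 13.6 and 12.4 CPM in NL_WT) and NO09G02900 (40.4, 50.03 and 49.9 CPM in NL_KO and 25.7, 27.6 and 27.8 CPM in NL_WT) had adjusted p = 0.109 and 0.151 in edgeR. NO12G02150 (adjusted p = 0.123, edgeR) and NO01G05430 (adjusted p = 0.142, edgeR) completed the 5, with log2 fold changes of 2.31 and 1.91. Of the 18 deposited counts of NO12G02150 only 1 is whole, so its value is uncertain in the same way.

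On the lower side, NO22G00940 had 59.4, 47.5 and 45.4 CPM in NL_KO and 126, 116 and 77.4 CPM in NL_WT (log2 fold change -1.07, SE 0.22, edgeR adjusted p = 0.123). NO24G02300 had 117, 122 and 119 CPM in NL_KO and 219.9, 186 and 158 CPM in NL_WT (log2 fold change -0.66, SE 0.15, edgeR adjusted p = 0.21). NO10G00380 had 12.7, 12.2 and 12.2 CPM in NL_KO and 58.4, 35.9 and 35.4 CPM in NL_WT (log2 fold change -1.80, SE 0.42, edgeR adjusted p = 0.227). In these 3 genes the NL_KO libraries lay close together and below every NL_WT library. NO30G00910 and NO16G03070 had log2 fold changes of -2.02 and -2.45 (adjusted p = 0.245 each, edgeR), and NO30G00910 has 0 and NO16G03070 7 whole counts of 18.

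**Figure D3:**
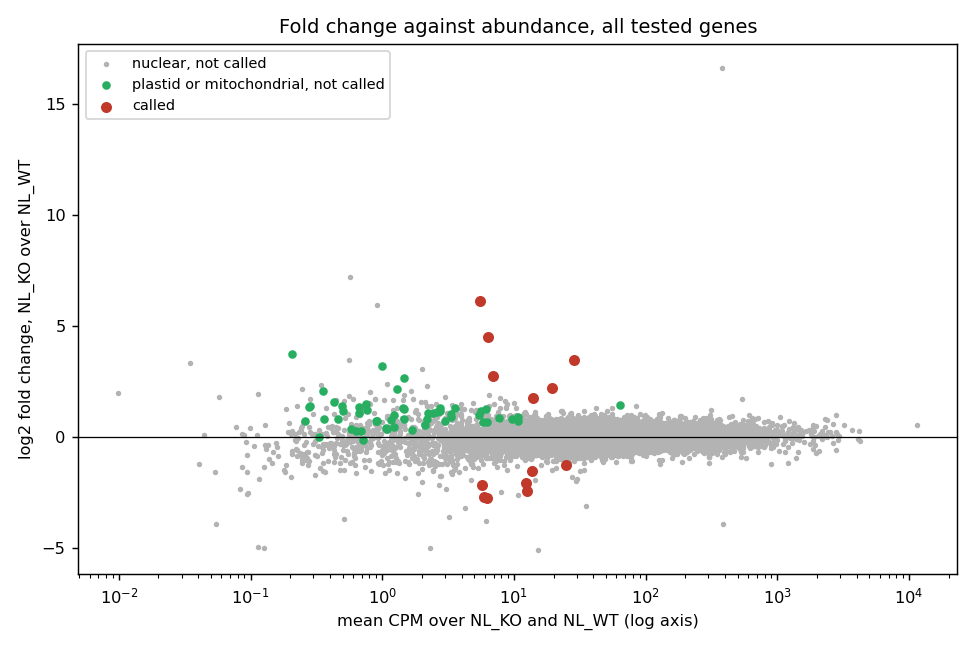
Log2 fold change of NL_KO over NL_WT against mean CPM (log axis) for 9912 tested genes. Red points are the 13 called genes, green points the 54 plastid and mitochondrial genes and grey points other nuclear genes. The called genes have means under 100 CPM, 52 of the 54 green points lie above 0, and the highest point is NO10G03450, which was not called.

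Of 2581 genes with a mean of at least 100 CPM, 0 were called, where 0.131% of all tested genes were. Every NL_KO library lay above NL_WT in 323 of these 2581 genes and below in 148. Over all 9912 tested genes these counts were 962 (9.71%) and 626 (6.32%). The largest log2 fold change among them was that of NO10G03450, which had 117, 20125 and 10613 counts in NL_KO and 0 counts in each NL_WT library. Against a floor of 3 counts in each NL_WT library its mean was at least 4009.7-fold higher in NL_KO (adjusted p = 0.408, edgeR). Without NL_KO replicate 2 this bound was 2059-fold, and without replicate 1 it was 5996-fold. It was the only gene of 10493 with at least 10 counts in every NL_KO library and at most 3 in every NL_WT library, and 0 genes showed the reverse. NO10G03450 was as uneven at high light, with 0, 9 and 14943 counts in HL_KO and 9496, 165 and 0 counts in HL_WT. Libraries of both strains thus ranged from none or few to very many counts, and all 10 of its deposited values above 0 were fractional, so its level is uncertain.

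Among the abundant genes with separated libraries, the next largest value was that of NO23G00020, which had 435, 1258 and 789 CPM in NL_KO and 393, 188 and 185 CPM in NL_WT (log2 fold change 1.70, SE 0.52, edgeR adjusted p = 0.408). NO25G00860 had 1020.1, 536 and 873 CPM in NL_KO and 419.9, 321 and 475 CPM in NL_WT (log2 fold change 1.00, SE 0.27, edgeR adjusted p = 0.392). NO21G02250 and NO21G02260, at log2 fold changes of 0.94 and 0.94, have nearly the same counts in every library and no whole value, so the pair may share its reads and is not counted as 2 observations. On the lower side NO27G01660 had 61.3, 62.6 and 19.99 CPM in NL_KO and 1997, 126 and 63.9 CPM in NL_WT (log2 fold change -3.93, SE 1.10, edgeR adjusted p = 0.408), and most of the wild type signal came from NL_WT replicate 1. NO16G00550 had 163, 82.3 and 112 CPM in NL_KO and 341, 255 and 175 CPM in NL_WT, and NO19G00090 had 1318, 774 and 739 CPM in NL_KO and 2423, 1695 and 1338 CPM in NL_WT. Neither passed (log2 fold changes -1.11 and -0.95, adjusted p = 0.312 and 0.396, edgeR). NO04G03370 and NO02G05460 (the second with no whole value), with log2 fold changes of -0.94 and -1.15 (adjusted p = 0.408 and 0.421, edgeR), had every NL_KO value below every NL_WT value.

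Leaving out NL_KO replicate 1 changed the comparison more than leaving out any other of the 6 libraries. With replicates 2 and 3 against NL_WT, 689 of 9952 tested genes were called (6.92%), with 256 higher (110 of these at least 2-fold) and 433 lower (230 at least 2-fold). The median called change was 1.94-fold up and 2.05-fold down. All 13 genes above stayed called. Leaving out any other 1 of the 6 libraries gave 9 to 11 calls. Of the 689 genes, 688 were also tested with all libraries, 255 higher and 433 lower, and the left-out library can be read on them, since it had no part in the choice. The 255 higher genes had a median log2 CPM above the NL_WT mean of 1.02 in NL_KO replicate 2 and 0.85 in replicate 3, but 0.08 in replicate 1. The 433 lower genes had medians of -1.15, -0.93 and 0.01 in replicates 2, 3 and 1. NL_KO replicate 1 lay nearer to the NL_WT mean than to that of replicates 2 and 3 in 240 of the 255 and in 415 of the 433 genes. Replicates 2 and 3 themselves helped to choose these genes, so their values are a description.

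**Figure D4:**
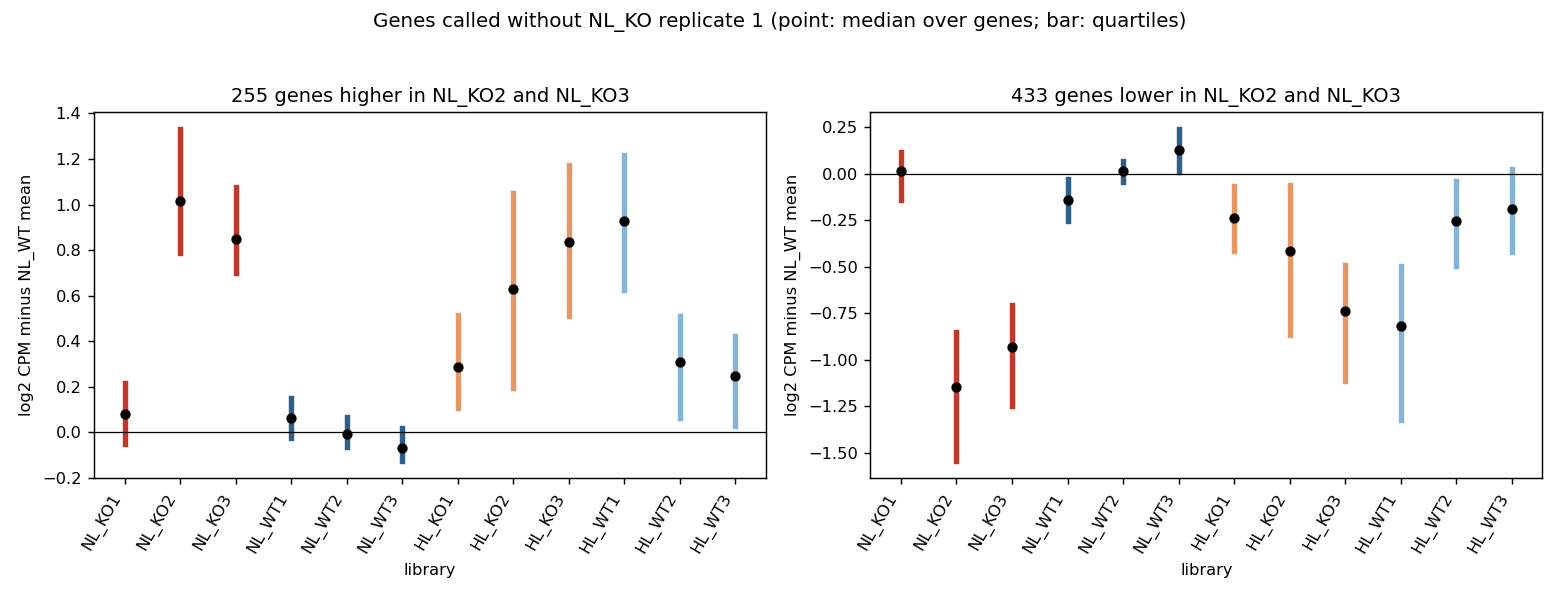
Log2 CPM minus the NL_WT mean, as the median (point) and quartiles (bar) over 255 higher and 433 lower genes called without NL_KO replicate 1, in each KO-labelled and wild type library. NL_KO replicate 1 lies at the NL_WT level in both panels, and HL_WT replicate 1 lies near HL_KO replicate 3.

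The high light libraries were not compared in that choice but shared its estimate of the spread. They also differed within strains. For the 255 higher genes the median above the NL_WT mean was 0.29, 0.63 and 0.83 in HL_KO and 0.93, 0.31 and 0.25 in HL_WT. For the 433 lower genes it was -0.24, -0.41 and -0.74 in HL_KO and -0.82, -0.25 and -0.19 in HL_WT. A wild type library, HL_WT replicate 1, therefore lay at least as far from NL_WT on both gene sets as a KO-labelled library, HL_KO replicate 3, while HL_KO replicate 1 was close to HL_WT replicates 2 and 3. In HL_KO against HL_WT, 12 of the 255 higher genes were called higher, or 4.71%, and 3 of the 433 lower genes were called lower, or 0.693%. Of all tested genes 3.25% were called higher and 0.383% lower there. What sets NL_KO replicates 2 and 3 and HL_WT replicate 1 apart was not tested.

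The 13 called genes did not follow that division. Taken in the direction of their call, their median log2 CPM difference from the NL_WT mean was 2.27, 2.46 and 2.42 in NL_KO replicates 1, 2 and 3. At high light it was 1.76, 2.61 and 2.47 in HL_KO, against 0.38, 0.33 and 0.81 in HL_WT. The normal light values chose these genes and are a description. The high light libraries shared the estimate of the spread in that choice, so they are no independent check. HL_WT replicate 1 stood with the other wild type libraries here, and HL_KO replicate 1 with the KO-labelled ones.

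Genes called without NL_KO replicate 1 were ranked where NL_KO replicates 2 and 3 lay apart from all NL_WT libraries. A mean of at least 10 CPM in those replicates or in NL_WT was also required. The 6 largest rises and 6 largest falls were taken, of which 6 were among the 13 and NO01G05430 was described above. NO28G00340 had 4.70, 20.3 and 11.6 CPM in NL_KO and 2.21, 4.61 and 3.74 CPM in NL_WT. NO16G01110 had 150, 0 and 0 counts in NL_KO and 213, 365 and 312 counts in NL_WT. NL_KO replicates 2 and 3 thus held none of it, at least 83.8-fold below the NL_WT mean against a floor of 3 counts per library, while NL_KO replicate 1 lay below the NL_WT range but well above that floor. HL_KO had 226, 0 and 0 counts of NO16G01110 and HL_WT had 0, 27 and 18, so that replicates 2 and 3 of HL_KO and replicate 1 of HL_WT also held none. All 13 of its deposited values above 0 were fractional.

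The other 3 falls also divided the NL_KO libraries. NO09G00910 had 176, 18.6 and 36.8 CPM in NL_KO and 140.1, 185 and 216 CPM in NL_WT, and at high light 116, 50.3 and 38.9 CPM in HL_KO and 24.4, 95.3 and 112 CPM in HL_WT. Without NL_KO replicate 1 it was called (log2 fold change -2.70, SE 0.56, edgeR adjusted p = 0.0235), and with it was not (log2 fold change -1.22, adjusted p = 0.416, edgeR). NO25G02130 had 9.16, 1.34 and 1.97 CPM in NL_KO and 7.73, 11.9 and 12.6 CPM in NL_WT. NO11G00850 had 38.6, 6.71 and 6.202 CPM in NL_KO and 22.3, 33.8 and 45.995 CPM in NL_WT. In these genes NL_KO replicate 1 lay inside the range of NL_WT, and replicates 2 and 3 lay several fold below it.

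Plastid and mitochondrial transcripts had higher means in NL_KO, and 0 of the 54 tested genes were called. Of these 54, 52 had positive log2 fold changes and the median was 0.98, against 49.2% positive and a median of -0.01 over all tested genes. Of all tested genes 0.131% were called. An unadjusted p under 0.05 was reached by 8 of 54, and by 12.1% of all tested genes. DESeq2, limma on TPM and the edgeR alternatives with all 6 libraries also called 0, whereas limma with voom and sample quality weights, which weighted NL_KO replicate 1 at 0.152, called 31. The difference sat in NL_KO replicates 2 and 3. The median log2 CPM difference of the 54 genes from the NL_WT mean was -0.08, 1.27 and 1.34 in NL_KO replicates 1, 2 and 3, and 0.62, -0.11 and -0.45 in NL_WT. At high light it was -0.19, 1.65 and 0.65 in HL_KO and 1.14, -0.41 and -0.23 in HL_WT. A wild type library, HL_WT replicate 1, was thus also raised, and HL_KO replicate 1 was not. Without NL_KO replicate 1 the median log2 fold change was 1.29 over 61 tested organelle genes, of which 3 were called: plastid rpoA, mitochondrial cox2 and 1 mitochondrial ribosomal protein gene. Of all genes tested without that library 6.92% were called.

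The libraries hold polyadenylated RNA, and organelle transcripts made up a very small part of it. Summed over plastid and mitochondrial genes, they were 111, 335 and 314 CPM of the library total in NL_KO and 161, 116 and 95.8 in NL_WT. NL_KO replicate 1 lay within the NL_WT range and replicates 2 and 3 lay above it. Means were 253 ± 123 in NL_KO and 124 ± 33.5 in NL_WT (SD, n = 3 each), and the groups overlapped (two-sided exact permutation test, p = 0.3). The plastid part averaged 193 ± 101 in NL_KO and 93.9 ± 28.0 in NL_WT (exact p = 0.3), and the mitochondrial part 59.6 ± 29.5 in NL_KO and 30.3 ± 6.49 in NL_WT (exact p = 0.2). With TPM the exact p was 0.2, and adjusted over these 4 tests each p was 0.3. More organelle RNA per cell and more of it kept by the selection for poly(A) tails cannot be told apart in such data.

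**Figure D5:**
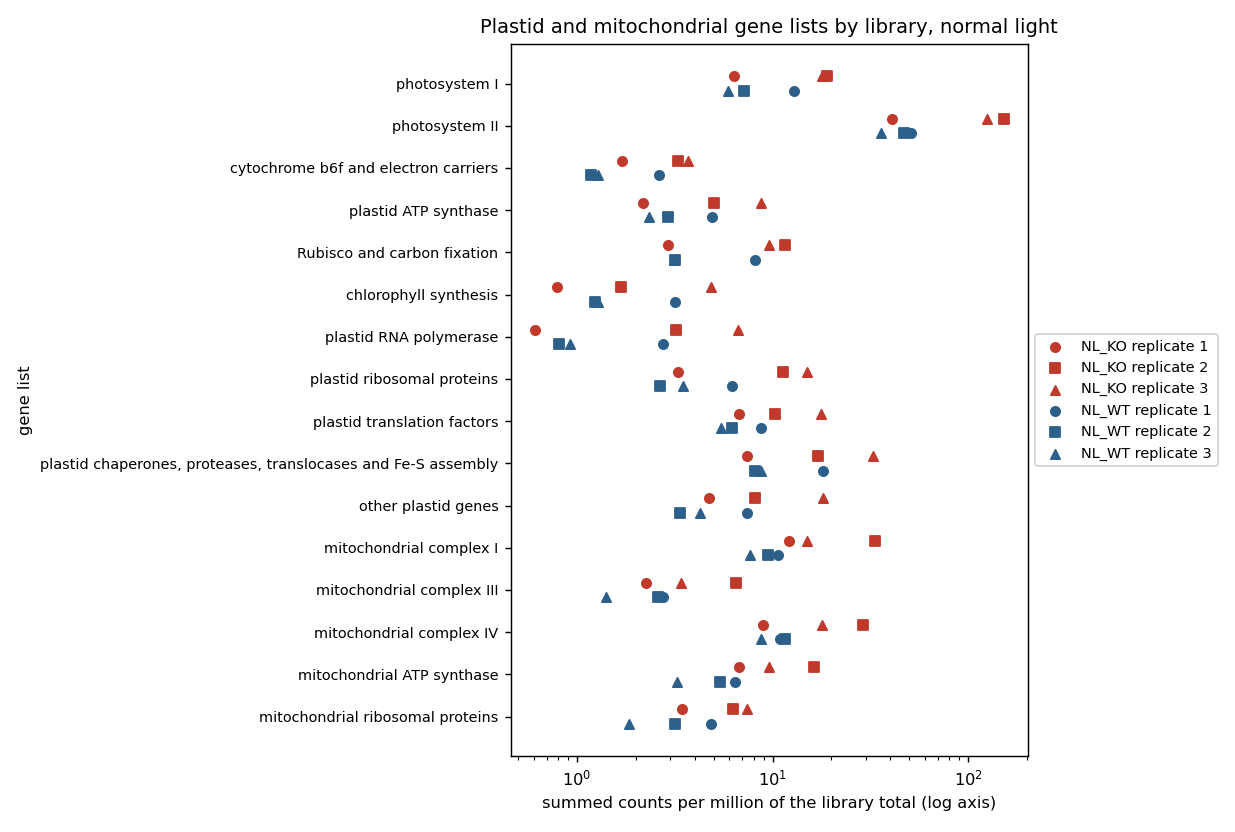
Summed CPM of the library total (log axis) for each list of plastid and mitochondrial genes, NL_KO above NL_WT, with 1 symbol per replicate. In every list shown NL_KO replicate 1 (circle) is the lowest of the 3 NL_KO libraries, and photosystem II has the highest sums.

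Photosystem genes encode the proteins that bind chlorophyll and carry out light-driven electron transport. Summed over the 19 photosystem II genes of the table, counts were 673, 2279 and 1834 in NL_KO and 815, 755 and 585 in NL_WT. Most of them were psbA (D1, the reaction centre protein that is replaced after light damage), with 536, 1881 and 1451 counts in NL_KO and 581, 575 and 467 counts in NL_WT (log2 fold change 1.43, SE 0.61, edgeR adjusted p = 0.408). The psbA counts of NL_KO replicates 2 and 3 stood above all NL_WT libraries, and replicate 1 stood among them. All 4 tested photosystem II genes had positive values (median 1.03, 0 called). Photosystem I, with psaA and psaB for its reaction centre, had 2 of 9 genes tested, both positive (median 0.83, 0 called), and psaA had 55, 128 and 121 counts in NL_KO and 105, 60 and 44 in NL_WT.

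The remaining photosynthesis and chlorophyll synthesis lists had low counts. All their tested genes except chlN had positive log2 fold changes. The cytochrome b6f and electron carrier list, whose complex passes electrons between the photosystems, had 3 of 10 genes tested (median 0.81, 3 positive, 0 called). Its petB, cytochrome b6, had 8, 19 and 18 counts in NL_KO and 15, 4 and 2 in NL_WT. The plastid ATP synthase had 4 of 7 tested (median 0.60, 4 positive, 0 called). Its atpB, the catalytic beta subunit, had 5, 9 and 45 counts in NL_KO and 25, 11 and 12 in NL_WT, so replicate 3 held most of the NL_KO counts. For rbcL, the large subunit of Rubisco, counts were 46, 154 and 120 in NL_KO and 124, 48 and 51 in NL_WT (log2 fold change 0.66, SE 0.60, edgeR adjusted p = 0.585). Its groups overlapped. Of the chlorophyll synthesis genes 2 of 4 were tested (median 0.49, 1 positive), and chlN, of the light-independent protochlorophyllide reductase, had 5, 9 and 15 counts in NL_KO and 15, 11 and 9 in NL_WT.

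Plastid gene expression was measured with few counts. rpoA, a subunit of the plastid RNA polymerase, had 5, 26 and 56 counts in NL_KO and 13, 6 and 2 in NL_WT (log2 fold change 2.19, SE 0.80, edgeR adjusted p = 0.408; without NL_KO replicate 1, log2 fold change 2.72, SE 0.68, edgeR adjusted p = 0.0362). tufA, the elongation factor that brings aminoacyl transfer RNA to the ribosome, had 111, 153 and 259 counts in NL_KO and 140, 100 and 89 in NL_WT (log2 fold change 0.81, SE 0.58, edgeR adjusted p = 0.502). In both genes NL_KO replicate 3 was highest and replicate 1 stood within the NL_WT range. Of 43 plastid ribosomal protein genes 6 were tested, all positive (median 1.53, 0 called). Their rpl21 had 8, 49 and 47 counts in NL_KO and 10, 2 and 6 in NL_WT (log2 fold change 2.68, SE 1.08, edgeR adjusted p = 0.408).

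The plastid chaperone, protease, translocase and Fe-S assembly list had 6 of 11 genes tested, 5 of them positive (median 0.77, 0 called). Its member with the most counts, dnaK, a chaperone of the Hsp70 family, had 73, 158 and 329 counts in NL_KO and 182, 88 and 103 in NL_WT (log2 fold change 0.74, SE 0.58, edgeR adjusted p = 0.541). NL_WT replicate 1 exceeded NL_KO replicates 1 and 2 here, so the groups overlapped. Of the 14 other plastid genes 5 were tested, all positive (median 1.10). Among them ycf54, a factor of chlorophyll synthesis, had 5, 21 and 49 counts in NL_KO and 4, 1 and 4 in NL_WT (log2 fold change 3.19, SE 1.35, edgeR adjusted p = 0.408), and thiG, of thiamine synthesis, had 29, 31 and 82 counts in NL_KO and 30, 15 and 28 in NL_WT.

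All 18 tested mitochondrial genes had positive log2 fold changes (median 1.14), and 0 were called. Of the 10 genes of complex I, the NADH dehydrogenase that feeds electrons into the respiratory chain, 7 were tested (median 1.27). nad1 had 23, 43 and 22 counts in NL_KO and 13, 17 and 10 in NL_WT (log2 fold change 1.27, SE 0.59, edgeR adjusted p = 0.408), and nad11, the member with the most counts, had 37, 133 and 42 in NL_KO and 37, 34 and 25 in NL_WT. The nad1 groups did not overlap. cob, the cytochrome b of complex III, had 37, 97 and 50 counts in NL_KO and 44, 42 and 23 in NL_WT. Complex IV, the terminal oxidase, had all 3 genes tested (median 0.93). Its cox1 had 104, 306 and 181 counts in NL_KO and 118, 136 and 95 in NL_WT (log2 fold change 0.93, SE 0.54, edgeR adjusted p = 0.439), and cox2 had 25, 77 and 47 in NL_KO and 32, 24 and 20 in NL_WT (log2 fold change 1.12, SE 0.44, edgeR adjusted p = 0.408; without NL_KO replicate 1, log2 fold change 1.499, SE 0.40, edgeR adjusted p = 0.0397).

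Of the mitochondrial ATP synthase genes 2 of 4 were tested (median 1.04), and atp1, its alpha subunit, had 76, 201 and 91 counts in NL_KO and 80, 50 and 37 in NL_WT (log2 fold change 1.28, SE 0.60, edgeR adjusted p = 0.409). Of 16 mitochondrial ribosomal protein genes 5 were tested (median 1.19). rps2 had 2, 11 and 11 counts in NL_KO and 3, 2 and 1 in NL_WT (log2 fold change 2.09, SE 0.87, edgeR adjusted p = 0.408), and rpl2 had 29, 16 and 37 in NL_KO and 29, 20 and 22 in NL_WT. Among these genes NL_KO replicate 2 was the highest library for nad1, nad11, cob, cox1, cox2 and atp1, and replicate 3 for rpl2. The plastid genes were divided. Replicate 3 was the highest for dnaK, tufA, rpoA, atpB, ycf54 and thiG, and replicate 2 for psbA, psaA, rbcL, petB and rpl21. In the whole organelle set every NL_KO library was above every NL_WT library in 5 of 54 genes, where 9.71% of all tested genes were.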

How the data were processed

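Polyadenylated RNA from flask cultures was sequenced with paired reads, 150 bases long. For each gene and library, expected counts and TPM were deposited. The expected counts are estimated read counts that the authors deposited without normalization, and they were rounded to whole numbers for testing. The deposited TPM values were scaled by the authors for gene length and library total. Trim Galore, STAR, Picard and Salmon are listed in the submitters' processing notes. What each did, its version, the genome build and the strandedness were not given in the sources used here, so no coordinates are printed.

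Counts were tested with edgeR 4.0.16 (R 4.3.3), by its robust quasi-likelihood test. TMM scaling came first, and filterByExpr removed 581 genes. The 18 libraries in 6 groups of 3 were fitted together, without covariates. Single values were compared by two-sided exact permutation tests.

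The text names NO07G02030, every called gene, IDs near NO07G02030 with an unadjusted p under 0.05, and organelle genes with such a p or the most counts in their list. It also names the 5 uncalled genes with the lowest p in each direction and the 5 separated genes of at least 100 CPM with the largest change in each direction. Named too are the 6 largest changes in each direction called without NL_KO replicate 1. These were taken among genes of at least 10 CPM whose other NL_KO replicates lay apart from NL_WT. Organelle lists were formed by symbol. The members, lists and tests were chosen with earlier results of these data known.

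Alternatives were RLE scaling, DESeq2 1.42.0, limma 3.58.1 with voom and sample quality weights or on log2 TPM with pseudocounts of 1 and 0.1, other filters, a replicate block, fewer libraries in the fit, and omission of single NL_KO or NL_WT libraries. The scripts were tested on simulated data. Correlation of same-numbered libraries was checked before the block was fitted. Where a group had 0 counts, a floor of 3 counts per library was used, which covers counting error only, since reads are not independent molecules.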

Additional observations from a re-analysis of the deposited data

Results flagged for a closer look

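For 5 of the named genes the difference between the strains itself differed between light levels. It was tested by the interaction term in edgeR over all 18 libraries, given here as the log2 fold change of HL_KO over HL_WT minus that of NL_KO over NL_WT. NO25G01660, one of the 13 called genes, had a difference of 1.501 (adjusted p = 0.0285, edgeR), with log2 fold changes of 0.26 at high light and -1.24 at normal light. NO22G00940 had a difference of 1.55 (adjusted p = 0.0403, edgeR), from 0.48 at high light and -1.07 at normal light. NO16G00550 had a difference of 1.94 (adjusted p = 0.0403, edgeR), from 0.83 and -1.11 at the same light levels. In these 3 genes NL_KO lay below NL_WT and the high light value was positive. The sign was the other way in NO07G00340, with a difference of -1.36 (adjusted p = 0.0329, edgeR) from -0.48 at high light and 0.88 at normal light. It was also the other way in NO09G02900, with a difference of -1.15 (adjusted p = 0.0442, edgeR) from -0.36 at high light and 0.79 at normal light. Only NO25G01660 of the 5 was called at normal light, and the cause of the differences was not tested.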

How the results depend on the processing

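The 13 calls became 40 with DESeq2, 3993 with limma voom and sample quality weights, 5 with the NL_KO and NL_WT libraries alone (3 of these higher), 3 with the 12 KO-labelled and wild type libraries (2 of these higher) and 23 without HL_KO replicate 2 and HL_WT replicate 1 together, whereas 6 of the 13 were higher. The cause was not tested; the weights were 0.0707 to 6.68, the highest for NL_WT replicate 2. Leaving out 1 of the 6 libraries gave 9 to 689 calls, the last without NL_KO replicate 1. RLE scaling, both TPM fits and both other filters gave 11 to 16. NO07G02030 had a log2 fold change of -0.56 with voom weights (adjusted p = 0.0027, limma), and -0.72 to -0.21 with 1 library left out. The light level difference was called for 498 genes with DESeq2, against 60 in edgeR, and 11 of the 13 genes, against 7, were called at high light with DESeq2. The organelle ratio kept its direction, at 1.71 to 2.61 with 1 library left out. Among uncalled organelle genes the sign turned for cp-chlN with voom weights (0.35) and with 1 library left out (-0.64 to 0.25), for cp-atpB with limma on log2(TPM + 0.1) (-0.13) and with 1 library left out (-1.10 to 0.97), and for mt-rpl2 with 1 library left out (-0.037 to 0.53). Of 1007 values for 60 named genes other than NO07G02030 under the alternatives, 876 kept their direction and side of the threshold, 84 passed it newly, 41 lost it and 6 changed sign. Same-numbered NL_KO and NL_WT libraries deviated from their group means with correlations of -0.36, 0.04 and -0.21, so the numbers are not taken as pairs. The replicate block gave 11 calls; of the 13 it lost NO09G03810, NO03G05480 and NO28G00650 (adjusted p = 0.0745, 0.122 and 0.0716, edgeR), and it added NO22G00940 (0.041). Organelle genes had few counts, down to 0 in single libraries, which limits what their tests can show.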

Other observations

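In the overexpression-labelled strain the organelle transcripts summed to 65.5, 46.4 and 138 CPM of the library total in NL_OE. Taken in the direction of the normal light call, the 13 called genes had medians of 1.76, 1.58 and 1.85 on the log2 scale in NL_OE relative to the NL_WT mean, and at least 1 of the 13 lay on the other side of that mean in each NL_OE library. These values share the NL_WT libraries with the comparison above and are given without a test.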
